A study of Mus musculus with 9 samples.

Results

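The 8 genes described here belong to zinc buffering, its control and the zinc transporter families. They are the metallothioneins Mt1 and Mt2, the metal-sensing transcription factor Mtf1, the zinc exporter Slc30a1 and the manganese exporter Slc30a10. The importers Slc39a8, Slc39a10 and Slc39a14 complete the set. All 8 were chosen by name, and each was found as 1 row by its Ensembl identifier, so that they make up 8 of 52661 gene rows. After the filter on low counts, 7 of the 8 remained among 18408 genes tested, and Slc30a10 did not.

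RNA was sequenced from C57BL/6 mouse embryonic fibroblasts, connective-tissue cells grown in culture, that had been immortalised with T/t antigen. The groups were Ctr1 -/- cells treated with bathocuproine disulfonic acid (BCS), a chelator that binds copper outside the cell, at 500 uM for 48 hours, Ctr1 -/- cells without it, and wild type cells, with 3 libraries in each. The sample labels give the dose in uM, whereas the series record gives the same figure in mM. Ctr1, encoded by Slc31a1, carries copper into the cell across the plasma membrane. Sample titles of the Ctr1 -/- cells carry the word Floxed, the Cre used is not given in the sources used here, and no wild type cells received BCS. All cells were kept in DMEM with modified N2, EGF and FGF-2. The labels do not say that the replicates are separate cultures, so the p-values measure the spread between these libraries, which may be technical.

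Metallothioneins are small cysteine-rich proteins that bind zinc, copper and cadmium and hold them in the cell. MTF1 is a zinc-finger protein that takes up zinc when the free zinc of the cell rises, and then binds metal response elements, short promoter motifs, to raise metallothionein genes and the zinc exporter Slc30a1. In mammalian cells copper is thought to reach MTF1 by displacing zinc from metallothionein. SLC30 proteins (ZnT) move zinc out of the cytosol and SLC39 proteins (ZIP) move it in. Some members of both families also carry manganese, namely SLC30A10, SLC39A8 and SLC39A14.

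Promoter windows are shown for the genes that metal response elements are best known for, the metallothioneins and Slc30a1, and for Slc39a8, the gene with the largest fold change of the 7 tested. Each window runs from 250 bases before to 50 after a transcript start in RefSeq (GRCm38.p6), and capitals mark the core of a metal response element, searched as TGCACNC or TGCGCNC on both strands. The windows lie on the plus strand at chr8:94178839-94179138 (Mt1), chr8:94172368-94172667 (Mt2), chr1:191906531-191906830 (Slc30a1) and chr3:135825407-135825706 (Slc39a8).
Mt1: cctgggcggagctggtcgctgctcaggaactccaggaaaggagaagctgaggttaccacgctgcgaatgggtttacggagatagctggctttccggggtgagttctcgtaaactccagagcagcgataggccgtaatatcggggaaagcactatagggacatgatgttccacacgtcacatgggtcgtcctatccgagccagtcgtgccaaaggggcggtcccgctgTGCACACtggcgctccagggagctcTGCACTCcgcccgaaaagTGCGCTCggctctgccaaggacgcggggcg
Mt2: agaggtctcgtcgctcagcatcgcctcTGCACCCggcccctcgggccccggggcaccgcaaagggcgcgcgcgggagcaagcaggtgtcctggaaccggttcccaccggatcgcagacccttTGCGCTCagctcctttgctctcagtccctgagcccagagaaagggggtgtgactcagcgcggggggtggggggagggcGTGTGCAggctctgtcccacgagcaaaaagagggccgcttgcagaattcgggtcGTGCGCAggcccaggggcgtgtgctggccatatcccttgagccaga
Slc30a1: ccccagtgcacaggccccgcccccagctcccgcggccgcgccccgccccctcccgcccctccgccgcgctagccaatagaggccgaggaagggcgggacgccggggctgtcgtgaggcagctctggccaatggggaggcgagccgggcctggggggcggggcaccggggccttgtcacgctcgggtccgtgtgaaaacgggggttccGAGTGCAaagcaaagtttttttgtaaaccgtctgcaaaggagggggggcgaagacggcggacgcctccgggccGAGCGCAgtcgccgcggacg
Slc39a8: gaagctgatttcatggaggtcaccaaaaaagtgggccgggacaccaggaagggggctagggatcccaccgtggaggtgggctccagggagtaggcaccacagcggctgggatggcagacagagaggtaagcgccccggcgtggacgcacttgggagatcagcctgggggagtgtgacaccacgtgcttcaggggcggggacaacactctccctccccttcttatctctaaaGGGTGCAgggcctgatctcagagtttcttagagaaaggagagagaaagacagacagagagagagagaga

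The core was matched 3 times in the Mt1 window, 4 times in that of Mt2 and 2 times in that of Slc30a1. Slc39a8 has a further window, chr3:135825029-135825328, with 0 matches, and 1 match in the window printed. The window of Slc30a10 held 3 matches, of which 2 overlap on opposite strands, and those of Mtf1 and Slc39a10 (which has 2 windows) held 0. Of 32817 windows in the RefSeq table, 25.7% held at least 1 match, 7.12% at least 2, 1.97% at least 3 and 0.518% at least 4. A match is a description of the letters and not a site of binding, and other transcript starts of these genes were not searched. Of the 8 genes, 7 were matched in the table and Slc39a14 was not.

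Library totals ran from 38962036 to 57206337 estimated counts. Levels are given as CPM, counts scaled to the size of the library. The targeted gene Slc31a1 had 3.24, 2.54 and 1.69 CPM with BCS and 2.54, 3.88 and 1.404 CPM in Ctr1-null cells, against 56.1, 54.8 and 54.9 CPM in wild type cells. Of 8 fibroblast markers, 8 passed the filter, with summed levels of 15968 to 19374 CPM with BCS, 15038 to 18085 CPM in Ctr1-null cells and 16095 to 18027 CPM in wild type cells. In the same order of groups, Fn1 averaged 8667, 8397 and 7667 CPM and Vim 4585, 5111 and 5182 CPM. Thy1 averaged 0.400, 0.420 and 0.403 CPM and Postn 2.74, 0.575 and 0.798 CPM. The 5 fat cell markers summed to 55.0 to 69.5 CPM with BCS and 53.3 to 79.9 CPM in Ctr1-null cells, against 23.7 to 25.4 CPM in wild type cells. Pparg alone averaged 48.2 CPM with BCS, 52.8 CPM in Ctr1-null and 20.5 CPM in wild type cells, and Adipoq and Plin1 did not pass the filter. The 4 macrophage and blood markers summed to 12.4 to 21.97 CPM with BCS, 9.34 to 17.6 CPM in Ctr1-null and 5.595 to 12.5 CPM in wild type cells, with the macrophage marker Adgre1 at 0 counts in every library. The 3 muscle markers summed to 3.24 to 8.54 CPM with BCS and 1.49 to 4.25 CPM in Ctr1-null, against 0.595 to 1.08 CPM in wild type cells, with Myod1 at 0 counts in every library. Des alone averaged 5.31 CPM with BCS, 2.67 CPM in Ctr1-null and 0.821 CPM in wild type cells, and Myog did not pass the filter. The 4 epithelial markers summed to 2.12 to 2.37 CPM with BCS and 1.07 to 3.93 CPM in Ctr1-null, against 2.27 to 9.74 CPM in wild type cells, and the 3 endothelial markers to 11.4 to 20.1 CPM with BCS and 16.3 to 29.2 CPM in Ctr1-null, against 18.3 to 25.1 CPM in wild type cells. The part of these markers in the results was not tested. Wild type replicate 1 stood apart from its group. It differed by more than 2-fold from wild type replicates 2 and 3 in 702 and 679 genes, whereas replicates 2 and 3 differed so in 47. On the first principal component (46.2% of the variance) it lay at -2.04, and wild type replicates 2 and 3 at 67.1 and 63.3. The Ctr1-null libraries lay at 9.05, -10.2 and -32.0. Ctr1-null replicate 1 differed by more than 2-fold from Ctr1-null replicates 2 and 3 in 271 and 399 genes, and those differed so in 150. For the genes and lists described here, calls gained or lost without wild type replicate 1 are given beside the result.

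Mt1 and Mt2 lie head to tail on the plus strand of chromosome 8 in GRCm38, with 5513 bp between the end of Mt2 (ENSMUSG00000031762.7, chr8:94172664-94173568) and the start of Mt1 (ENSMUSG00000031765.8, chr8:94179082-94180327). Neither was called at an adjusted p under 0.05 in any comparison. Mt1 had 74.9, 60.8 and 47.4 CPM with BCS and 69.6, 76.1 and 65.5 CPM in Ctr1-null cells, against 66.0, 57.8 and 62.2 CPM in wild type cells. Each pair of groups overlapped, and BCS replicate 1 was as high as the Ctr1-null libraries. Mt2, the partner gene, had 34.1, 26.4 and 14.4 CPM with BCS and 39.5, 37.3 and 30.96 CPM in Ctr1-null cells, against 31.9, 27.9 and 27.7 CPM in wild type cells. BCS replicate 3 was the lowest of the 9 libraries for both genes, the BCS group had the widest spread of the 3 groups for both, and each pair of groups overlapped for Mt2 too.

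The Mt1 level with BCS was 0.98 times that of wild type cells, with a 95% interval of 0.79 to 1.23 (log2 fold change -0.02 ± 0.15 SE, adjusted p = 0.933, edgeR quasi-likelihood test). For Mt2 the same comparison gave -0.22 ± 0.25 (adjusted p = 0.569), with an interval of 0.58- to 1.26-fold. Ctr1-null against wild type cells gave 0.18 ± 0.15 for Mt1 and 0.30 ± 0.25 for Mt2 on the log2 scale (adjusted p = 0.527 and 0.547). BCS against Ctr1-null cells gave -0.21 ± 0.15 for Mt1 and -0.52 ± 0.25 for Mt2 (adjusted p = 0.545 and 0.368). The interval for Mt2 in that comparison ran from 0.47- to 1.03-fold. The sign for Mt1 in BCS against wild type cells turned to 0.02 with upper-quartile factors and to 0.07 with library size only.

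The balance of the pair was described per length, as CPM per kb of the principal coding transcript (549 bases for Mt1 and 511 for Mt2). Coding transcripts ran from 549 to 1085 bases for Mt1 and from 388 to 511 for Mt2, so the size of the ratio depends on this choice. The level of Mt1 over that of Mt2 was 2.04, 2.14 and 3.07 with BCS and 1.64, 1.90 and 1.97 in Ctr1-null cells, against 1.93, 1.93 and 2.09 in wild type cells. The value of 3.07 came from BCS replicate 3, where Mt2 was lowest. No 31-base stretch of an Mt1 transcript occurred in an Mt2 transcript, so reads of that length can be assigned to one or the other. Gm45774 lies antisense over 749 bp of Mt2 with 8 to 37 counts per library, and whether counting used strand is not given in the sources used here. The remaining metallothionein genes were near or at 0, with 0 to 6 counts per library for Mt3 (expressed mainly in brain) and 0 counts in every library for Mt4 (expressed in stratified epithelia).

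Mtf1 (ENSMUSG00000028890.13, chr4:124802104-124849800, plus strand) had 33.2, 34.1 and 29.4 CPM with BCS and 35.4, 30.7 and 29.8 CPM in Ctr1-null cells, against 30.97, 28.9 and 29.9 CPM in wild type cells. The 3 groups overlapped, and this gene had the smallest standard errors of the 7. Its log2 fold change was 0.11 ± 0.09 for BCS against wild type (adjusted p = 0.451), 0.10 ± 0.09 for Ctr1-null against wild type (adjusted p = 0.603) and 0.01 ± 0.09 for BCS against Ctr1-null cells (adjusted p = 0.973). The interval of the first was 0.93- to 1.24-fold. With the authors' factors the sign turned, to -0.06 for BCS against wild type and -0.10 for BCS against Ctr1-null cells. The transcript level says nothing of whether the protein was in the nucleus or bound to DNA. The opposite-strand gene 1110065P20Rik, with 462 to 745 counts per library, overlaps 721 bp of Mtf1.

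**Figure D1:**
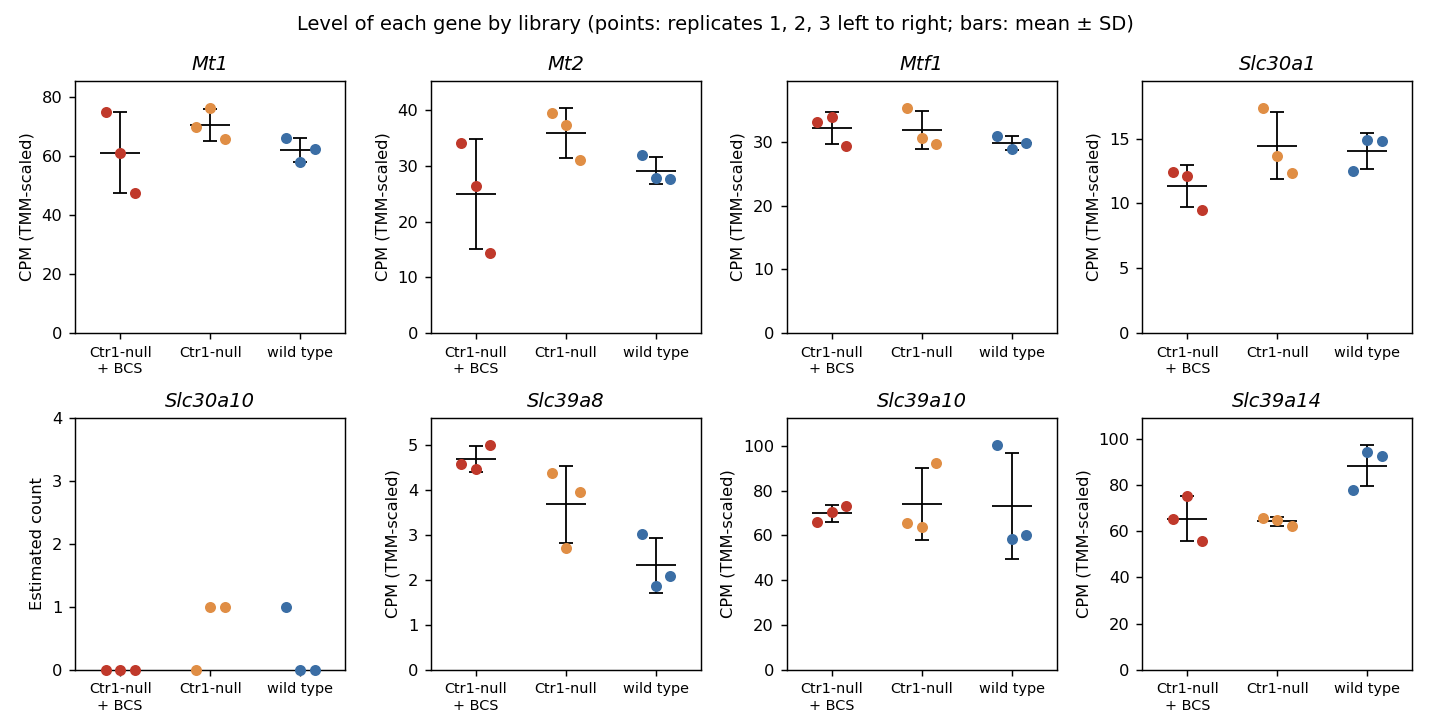
Level of each of the 8 genes in each library, in TMM-scaled CPM (estimated counts for Slc30a10), for Ctr1-null cells with BCS, Ctr1-null cells and wild type cells; points are replicates 1, 2 and 3 from left to right, and bars the mean and SD of 3 libraries. Slc39a8 lies between 4.47 and 4.999 CPM with BCS and between 1.87 and 3.02 CPM in wild type cells, Slc39a14 is highest in the wild type libraries, and the groups of Mt1, Mt2 and Mtf1 overlap between BCS and wild type.

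Slc30a1 (ENSMUSG00000037434.7, chr1:191906767-191913247, plus strand) encodes ZnT1, the zinc exporter of the plasma membrane and a standard MTF1 target. It had 12.4, 12.1 and 9.46 CPM with BCS and 17.4, 13.7 and 12.3 CPM in Ctr1-null cells, against 12.5, 14.9 and 14.9 CPM in wild type cells. All 3 BCS libraries lay below all 3 wild type libraries, with the closest pair at 12.4 and 12.5 CPM, and Ctr1-null cells overlapped both groups. The log2 fold change for BCS against wild type was -0.31 ± 0.16, which did not pass the test (adjusted p = 0.196). For BCS against Ctr1-null cells it was -0.35 ± 0.16 (adjusted p = 0.337). Ctr1-null and wild type cells gave 0.04 ± 0.16 (adjusted p = 0.913). The antisense gene 1700034H15Rik, with 29 to 43 counts per library, overlaps 761 bp of it.

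Slc30a10 (ENSMUSG00000026614.6, chr1:185454848-185468762, plus strand) encodes a manganese exporter best known from liver, gut and brain. It had 0, 0 and 0 counts with BCS and 0, 1 and 1 in Ctr1-null cells, against 1, 0 and 0 in wild type cells. A library with 0 counts could hold up to 3, equal to between 0.0524 and 0.0770 CPM depending on its total, and every library was under that limit. No fold change was formed.

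Slc39a8 (ENSMUSG00000053897.15, chr3:135825279-135888572, plus strand) encodes ZIP8, which imports zinc and manganese at the cell surface. It rose in Ctr1-null cells with BCS relative to wild type cells. The libraries had 4.57, 4.47 and 4.999 CPM with BCS and 4.36, 2.71 and 3.94 CPM in Ctr1-null cells, against 3.02, 1.87 and 2.08 CPM in wild type cells. Every BCS library was above every Ctr1-null and every wild type library, and Ctr1-null replicate 2, at 2.71 CPM, fell below wild type replicate 1. Means were 4.68 ± 0.283 CPM with BCS, 3.67 ± 0.857 CPM in Ctr1-null and 2.32 ± 0.611 CPM in wild type cells (SD, n = 3 each). BCS against wild type gave 1.01 ± 0.23 on the log2 scale (adjusted p = 0.0206), or 2.01-fold with an interval of 1.41 to 2.87. Ctr1-null against wild type gave 0.66 ± 0.23 (adjusted p = 0.201), and BCS against Ctr1-null 0.35 ± 0.22 (adjusted p = 0.506).

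Slc39a8 overlaps Gm43429, an unconfirmed transcript of the same strand with 11 to 27 counts per library. Without wild type replicate 1 the log2 fold change of Slc39a8 was 1.23 for BCS against wild type (adjusted p = 0.00388) and 0.89 for Ctr1-null against wild type (adjusted p = 0.0231). Over all genes the calls without that library numbered 5840 for BCS against wild type and 3254 for Ctr1-null against wild type. The call of Slc39a8 for BCS against wild type held in 15 of 19 alternatives, with log2 fold changes of 0.88 to 1.23. It was lost without BCS replicate 1 (adjusted p = 0.0645), BCS replicate 3 (0.0796), wild type replicate 2 (0.0841) or wild type replicate 3 (0.0889).

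Slc39a14 (ENSMUSG00000022094.15, chr14:70303469-70351425, minus strand) encodes ZIP14, which imports zinc, iron and manganese, and it moved the other way. It had 65.4, 75.2 and 55.6 CPM with BCS and 65.9, 64.96 and 62.2 CPM in Ctr1-null cells, against 78.1, 94.5 and 92.7 CPM in wild type cells. Every library of both Ctr1-null groups was below every wild type library, and the 2 Ctr1-null groups overlapped. Means were 65.4 ± 9.79 CPM with BCS, 64.4 ± 1.91 CPM in Ctr1-null and 88.4 ± 9.03 CPM in wild type cells (SD, n = 3 each). The gene fell in BCS against wild type, with a log2 fold change of -0.44 ± 0.11 (adjusted p = 0.0327), to 74.0% of the wild type level. Ctr1-null against wild type gave -0.46 ± 0.11 (adjusted p = 0.122), and BCS against Ctr1-null 0.02 ± 0.11 (adjusted p = 0.952).

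Without wild type replicate 1 the Slc39a14 values were -0.52 for BCS against wild type (adjusted p = 0.00852) and -0.54 for Ctr1-null against wild type (adjusted p = 0.0129). DESeq2 also called Ctr1-null against wild type, at -0.46 (adjusted p = 0.0138). The call for BCS against wild type held in 11 of 19 alternatives, with log2 fold changes of -0.56 to -0.33. It was lost with the replicate number as a block (-0.44, adjusted p = 0.0524), with library size only (-0.33, 0.0598), in a fit of only the groups compared (0.0569), and without BCS replicate 1 (0.0998), BCS replicate 3 (0.112), Ctr1-null replicate 2 (0.0536), wild type replicate 2 (0.119) or wild type replicate 3 (0.123).

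Slc39a10 (ENSMUSG00000025986.6, chr1:46807544-46892852, minus strand) encodes ZIP10, a zinc importer that zebrafish and mouse MTF1 are reported to repress. It had 65.9, 70.5 and 73.3 CPM with BCS and 65.5, 63.7 and 92.4 CPM in Ctr1-null cells, against 100.5, 58.5 and 60.1 CPM in wild type cells. The groups overlapped, and the highest library was wild type replicate 1. The log2 fold change was -0.06 ± 0.21 for BCS against wild type (adjusted p = 0.867), 0.02 ± 0.21 for Ctr1-null against wild type (adjusted p = 0.975) and -0.08 ± 0.21 for BCS against Ctr1-null (adjusted p = 0.898). The sign depended on the scaling, at 0.02 with library size only in BCS against wild type, and on single libraries.

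**Figure D2:**
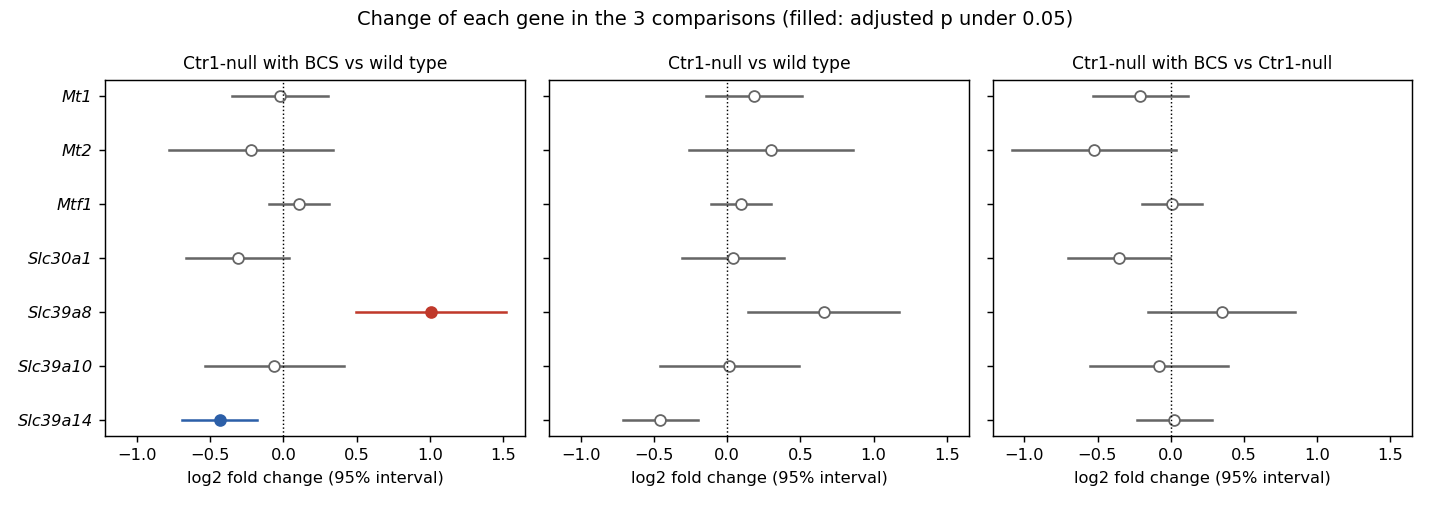
Log2 fold change (points) and 95% interval (lines) of the 7 genes tested, in 3 comparisons from left to right: BCS against wild type, Ctr1-null against wild type and BCS against Ctr1-null. Filled points are called at an adjusted p under 0.05: Slc39a8 at 1.01 and Slc39a14 at -0.44, both in BCS against wild type.

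Of the 7 genes tested, 2 were called in BCS against wild type, 1 higher and 1 lower, where 15.8% of all genes tested were called (8.56% higher and 7.28% lower). In Ctr1-null against wild type 0 of the 7 were called, beside 0.0109% of all genes, which is 2 genes by edgeR at the adjusted threshold, with 3239 at an unadjusted p under 0.05 and 1056 called by DESeq2. In BCS against Ctr1-null 0 of the 7 were called, beside 0.0543% of all genes, which is 10 genes, with 2708 at an unadjusted p under 0.05 and 711 called by DESeq2. At an unadjusted p under 0.05 there were 2 of the 7 in BCS against wild type, 2 in Ctr1-null against wild type and 1 in BCS against Ctr1-null, beside 32.9%, 17.6% and 14.7% of all genes. The groups did not overlap for 3 of the 7 in BCS against wild type (Slc30a1, Slc39a8 and Slc39a14), against 37.1% of all genes. They did not overlap for 1 of the 7 in Ctr1-null against wild type (Slc39a14), against 18.1% of all genes, and for 1 in BCS against Ctr1-null (Slc39a8), against 24.3%. The median log2 fold change of the 7 was -0.06 for BCS against wild type, 0.10 for Ctr1-null against wild type and -0.08 for BCS against Ctr1-null, beside 0.01, 0.01 and 0.00 over all genes. Comparisons over wild type share the wild type libraries, and those over Ctr1-null share the Ctr1-null libraries. In a bulk culture, fewer cells of a type and less RNA per cell cannot be told apart.

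Levels were set in order per length, as mean CPM per kb. Mt1 was highest, at 111 with BCS, 128 in Ctr1-null and 113 in wild type cells. Mt2 came next at 48.8, 70.3 and 57.05 in the same groups. Slc39a14 (13.3, 13.1 and 18.0) and Slc39a10 (12.7, 13.4 and 13.3) followed close together, and the libraries of these 2 genes overlapped in every group. Mtf1 (4.22, 4.19 and 3.92), Slc30a1 (2.16, 2.76 and 2.69) and Slc39a8 (1.32, 1.04 and 0.657) made the low end. Apart from Slc39a14 and Slc39a10, genes next to each other in this order did not overlap in any group. The level of Slc39a8 relative to Slc39a14, per length, was 0.0975, 0.0828 and 0.125 with BCS and 0.0923, 0.0582 and 0.0884 in Ctr1-null cells, against 0.0539, 0.0275 and 0.0313 in wild type cells. Each library of both Ctr1-null groups was above the wild type libraries. The ratio sets the gene called higher in BCS against wild type over the gene called lower. Its separation of the BCS from the wild type libraries was therefore fixed by that choice. In Ctr1-null against wild type the log2 fold changes of the 2 genes also had opposite signs (0.66 and -0.46). That separation is therefore not a further result either, and its closest libraries stood at 0.0582 and 0.0539. No test was made of this ratio.

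**Figure D3:**
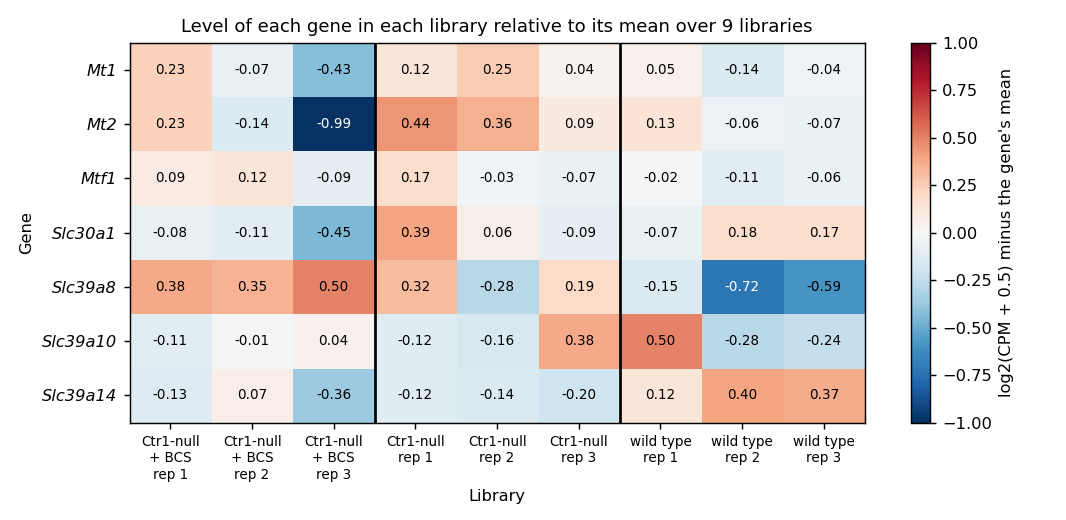
Level of the 7 genes tested in each of 9 libraries, as log2(CPM + 0.5) minus the gene's mean over the libraries; columns run from Ctr1-null with BCS through Ctr1-null to wild type. BCS replicate 3 is the lowest library for Mt1, Mt2, Slc30a1 and Slc39a14 and the highest for Slc39a8.

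BCS replicate 3 held the lowest value of the 9 libraries for 4 of the 7 genes (Mt1, Mt2, Slc30a1 and Slc39a14) and the highest for 1 (Slc39a8). Over all genes tested it was the lowest library for 18.6% and the highest for 20.8%. Wild type replicate 2 was lowest for Mtf1, Slc39a8 and Slc39a10 and highest for Slc39a14, beside 16.6% and 14.3% of all genes tested. Ctr1-null replicate 1 was highest for Mt2, Mtf1 and Slc30a1, beside 11.9% of all genes tested. Likeness to a metallothionein was measured as the mean absolute difference of log2(CPM + 0.5), centred on each gene's mean over the 9 libraries, against 18407 other genes. Mt1 was the gene ranked 3 for Mt2, at 0.145, where the median of all genes was 0.328. Mt2 ranked 1176 for Mt1 at the same 0.145, where the median was 0.217. A gene with the same level in every library would stand at 0.152 from Mt1 and 0.278 from Mt2. The named genes nearest to Mt1 were Prkab1 (0.0810), Tada1 (0.0814) and Ccdc144b (0.0877), and those nearest to Mt2 besides Mt1 were Cdh26 (0.141) and Npy1r (0.154). Ccdc144b was near the floor, at 3 to 19 counts per library and below the 0.5 CPM added before the log, which flattens its profile. Npy1r was also low, at 27 to 73 counts per library.

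The wider transporter families were counted over lists chosen with earlier results known. Of 10 SLC30 genes, 7 were tested, and in BCS against wild type 2 fell and 0 rose, beside 7.28% of all genes called lower and 8.56% called higher. They were Slc30a5 (-0.38 ± 0.07, adjusted p = 0.0111), whose product loads zinc into the secretory pathway, and Slc30a4 (-0.35 ± 0.09, adjusted p = 0.0293), which loads it into vesicles. Slc30a5 had 67.0, 69.5 and 67.4 CPM with BCS and 75.1, 74.4 and 79.5 CPM in Ctr1-null cells, against 81.9, 93.5 and 90.7 CPM in wild type cells. Slc30a4 had 201.6, 200.2 and 175.7 CPM with BCS and 252.4, 227.4 and 209.2 CPM in Ctr1-null cells, against 242.3, 248.4 and 244.2 CPM in wild type cells. The BCS libraries of both genes lay below all wild type libraries. The median log2 fold change of the 7 was -0.21. Of 14 SLC39 genes, 11 were tested, 1 rose (Slc39a8) and 1 fell (Slc39a14), with a median of -0.08. In this comparison edgeR called 3 of the 18 genes tested in both families lower. DESeq2 called 5 lower, 2 of them SLC39 genes. Slc30a4 was not called with library size only (-0.25, adjusted p = 0.0559), nor without BCS replicate 1 (0.0721), BCS replicate 2 (0.0536), BCS replicate 3 (0.114), wild type replicate 2 (0.100) or wild type replicate 3 (0.0985). Slc30a5 was not called without BCS replicate 1 (adjusted p = 0.0517), wild type replicate 2 (0.0553) or wild type replicate 3 (0.0579). In Ctr1-null against wild type 0 of the 18 tested were called by edgeR, with 6 at an unadjusted p under 0.05 (17.6% of all genes) and 2 called lower by DESeq2, and the smallest p in each family belonged to Slc30a5 (-0.22 ± 0.07, adjusted p = 0.180) and Slc39a14. Without wild type replicate 1, where 3254 genes were called in all, 1 of the 18 was called higher and 2 lower in that comparison, among them Slc30a5 (-0.27, adjusted p = 0.0232). In BCS against Ctr1-null 0 were called by edgeR or by DESeq2, with 5 at an unadjusted p under 0.05 (14.7% of all genes), and the smallest p belonged to Slc30a4 (-0.25 ± 0.09, adjusted p = 0.237) and Slc39a2 (0.86 ± 0.23, adjusted p = 0.164), which was below 1 CPM in both groups.

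**Figure D4:**
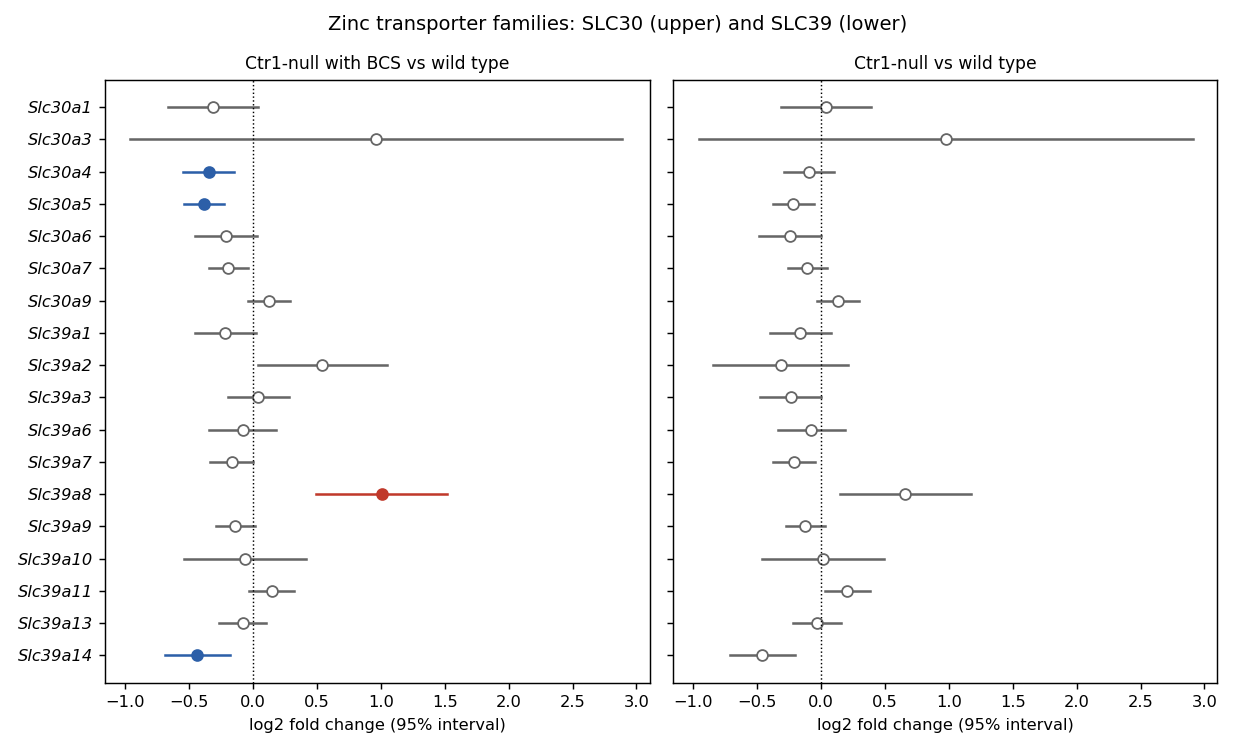
Log2 fold change (points) and 95% interval (lines) of the 7 SLC30 and 11 SLC39 genes tested, for BCS against wild type (left) and Ctr1-null against wild type (right); filled points are called at an adjusted p under 0.05. Slc39a8 is the one gene called higher and Slc30a4, Slc30a5 and Slc39a14 are called lower on the left, and no gene is called on the right.

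Genes described in the literature as targets of MTF1 made a list of 11, of which 10 were tested. The list pools genes that MTF1 raises, such as Mt1, with Slc39a10, which it is reported to repress. Its counts and median are therefore no measure of MTF1 activity. In BCS against wild type 1 rose, 1 fell and 8 were not called, beside 15.8% of all genes called, and the median was -0.02. The one that rose was Pgf, a placental growth factor of the VEGF family (1.53 ± 0.34, adjusted p = 0.0201). Pgf had 3.18, 3.29 and 3.98 CPM with BCS and 1.94, 1.53 and 2.93 CPM in Ctr1-null cells, against 1.87, 0.946 and 0.799 CPM in wild type cells. The one that fell was Csrp1, a LIM-domain protein of muscle and fibroblasts (-0.60 ± 0.14, adjusted p = 0.0232). Csrp1 had 304.9, 305.4 and 308.6 CPM with BCS and 328.5, 341.3 and 321.5 CPM in Ctr1-null cells, against 345.2, 518.2 and 531.4 CPM in wild type cells, where wild type replicate 1 was below the others of its group. Without wild type replicate 1 the values were 1.996 for Pgf (adjusted p = 0.00198) and -0.78 for Csrp1 (adjusted p = 0.000324), and 3 genes of the list were called higher. That fit called 5840 genes in all. The call of each was lost without BCS replicate 1, BCS replicate 3, wild type replicate 2 or wild type replicate 3, with adjusted p of 0.0565 to 0.0809 for Pgf and 0.0797 to 0.0957 for Csrp1, and for Csrp1 also without BCS replicate 2 (0.0581). In Ctr1-null against wild type 0 were called by edgeR, with 3 at an unadjusted p under 0.05 (17.6% of all genes) and 1 called by DESeq2, and Csrp1 had the smallest p (-0.49 ± 0.14, adjusted p = 0.147). Without wild type replicate 1, where 3254 genes were called in all, 2 were called higher and 1 lower in that comparison. The gene called lower was Csrp1 (-0.67, adjusted p = 0.000901). In BCS against Ctr1-null 0 were called by edgeR or DESeq2, with 1 at an unadjusted p under 0.05 (14.7% of all genes), which was Slc30a1.

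Of 6 manganese-handling genes 5 were tested, and in BCS against wild type Slc39a8 rose while Slc39a14 and Slc11a2 fell, beside 8.56% of all genes called higher and 7.28% called lower, and the median was -0.27. Slc11a2, which encodes the divalent metal transporter DMT1, had a log2 fold change of -0.52 ± 0.09 (adjusted p = 0.0103). It had 33.8, 37.9 and 32.1 CPM with BCS and 39.8, 36.3 and 40.0 CPM in Ctr1-null cells, against 44.6, 51.3 and 52.7 CPM in wild type cells. All libraries of both Ctr1-null groups were below the wild type libraries. Slc11a2 was not called without wild type replicate 3 (adjusted p = 0.0537). In Ctr1-null against wild type 0 of the 5 were called by edgeR, with 3 at an unadjusted p under 0.05 (17.6% of all genes) and 2 called lower by DESeq2, and the smallest p was that of Slc39a14. In the fit without wild type replicate 1, that comparison had 1 called higher and 2 lower, beside 3254 genes called in all. In BCS against Ctr1-null 0 were called by edgeR or DESeq2, with 1 at an unadjusted p under 0.05 (14.7% of all genes), that of Atp2c1, the manganese and calcium pump of the Golgi (-0.28 ± 0.10, adjusted p = 0.250).

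Metallothionein genes also respond to glucocorticoids and to oxidative stress, so both responses were counted. Of 7 glucocorticoid-responsive genes, in BCS against wild type Zbtb16 (3.17 ± 0.56, adjusted p = 0.00965) and Tsc22d3 (0.51 ± 0.13, adjusted p = 0.0304) rose and Fkbp5 (-0.35 ± 0.10, adjusted p = 0.0451) fell, beside 8.56% of all genes called higher and 7.28% called lower, and the median was 0.06. Zbtb16, a zinc-finger factor, was low throughout, with 30, 31 and 33 counts with BCS and 16, 12 and 13 in Ctr1-null cells, against 7, 0 and 2 in wild type cells. The call of Zbtb16 was lost without wild type replicate 3 (2.85, adjusted p = 0.0528), and its value was 4.62 without wild type replicate 1. Fkbp5, a co-chaperone of the receptor, was called in 5 of 19 alternatives and, of the 9 libraries, lost its call without any 1 of 8. Tsc22d3 (GILZ) was called in 13 of 19, and lost its call with the replicate block (adjusted p = 0.0695), in a fit of only the groups compared (0.0508), and without BCS replicate 1 (0.112), BCS replicate 3 (0.0798), wild type replicate 2 (0.0885) or wild type replicate 3 (0.0782). In the other comparisons edgeR called 0. Ctr1-null against wild type had 2 at an unadjusted p under 0.05 (17.6% of all genes) and 0 called by DESeq2 (1056 over all genes). BCS against Ctr1-null had 3 (14.7% of all genes) and 2 (711 over all genes). The smallest p was that of Zbtb16 (2.04 ± 0.61, adjusted p = 0.151) in Ctr1-null against wild type and that of Fkbp5 (-0.48 ± 0.10, adjusted p = 0.0997) in BCS against Ctr1-null. With wild type replicate 1 left out, 2 were called higher in Ctr1-null against wild type, with Zbtb16 at 3.50 (adjusted p = 0.00720), and Fkbp5 was called lower in BCS against Ctr1-null (-0.49, adjusted p = 0.0401). Over all genes that fit called 3254 and 183 in these comparisons. Of 9 metal and electrophile stress genes, in BCS against wild type Slc7a11, the cystine importer, rose (1.75 ± 0.32, adjusted p = 0.0109) and Hspa1b, a heat shock protein, fell (-0.53 ± 0.08, adjusted p = 0.00573), with a median of 0.12. The fit without wild type replicate 1 called 2 of the 9 higher and 2 lower, beside 5840 genes called in all. Slc7a11 had 24.8, 15.6 and 25.1 CPM with BCS and 23.1, 10.4 and 10.1 CPM in Ctr1-null cells, against 7.13, 6.11 and 6.15 CPM in wild type cells. Slc7a11 was not called without wild type replicate 2 (adjusted p = 0.050004) or replicate 3 (0.0533). Hspa1b and its near-identical copy Hspa1a share sequence, so the split of their counts is uncertain. In the other comparisons edgeR called 0 of the 9. Ctr1-null against wild type had 4 at an unadjusted p under 0.05 (17.6% of all genes) and 3 called by DESeq2 (1056 over all genes). BCS against Ctr1-null had 2 (14.7% of all genes) and 0 (711 over all genes). The smallest p was that of Hspa1b in Ctr1-null against wild type (-0.48 ± 0.08, adjusted p = 0.0707) and that of Hspa1a in BCS against Ctr1-null (0.33 ± 0.12, adjusted p = 0.245). In Ctr1-null against wild type, edgeR with no filter called 2 higher and 1 lower, and without wild type replicate 1 it called 3 higher and 1 lower, with Hspa1b at -0.47 (adjusted p = 0.00680). Over all genes these fits called 265 and 3254.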

How the data were processed

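The authors deposited estimated counts per gene, already rounded to whole numbers and not normalised. A further table they deposited holds scaled signal values, used here only to recover a factor for each gene and library for an alternative. FastQC, STAR, Salmon, DESeq2 and the build GRCm38 are listed in the submitters' processing notes, with no versions or roles. Library preparation used an Illumina TruSeq RNA kit, per the labels' protocols, and whether counting used strand is not given in the sources used here.

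Of 52661 rows, 52566 matched an Ensembl identifier in GENCODE M21, 95 did not, and 2156 of the matches had another version number. There were 17728 rows with no counts. Counts were fitted in edgeR 4.0.16 (R 4.3.3) with TMM scaling, filterByExpr (minimum count 10, minimum total 15) and a quasi-likelihood model of all 9 libraries in 3 groups, which left 6 residual degrees of freedom (common biological coefficient of variation 0.169). Tests were 2-sided, and p-values were adjusted by Benjamini and Hochberg over all 18408 genes tested, with calls at an adjusted p under 0.05. CPM values are TMM-scaled, ± beside a log2 fold change is its SE, and intervals are at 95%. Per-length levels divide CPM of the whole gene by the length of its principal coding transcript in GENCODE M21. Their order between genes therefore depends on which transcripts carry the reads. The limit of 3 counts for a count of 0 covers counting error alone, as PCR reads are not separate molecules. The fit was tested on simulated data.

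The genes and lists were chosen with earlier results of these data known. From each list the text names every gene called (at most 3 in each direction), otherwise the gene with the smallest p. For each of Mt1 and Mt2 the 3 genes most like it are named, leaving out those without an approved symbol. Alternatives were RLE and upper-quartile factors, library size only, the authors' factors, no filter, limma-voom (limma 3.58.1), DESeq2 1.42.0, at least 1 CPM in 3 samples, only the groups compared, the replicate number as a block, and leaving out each library in turn. No library was left out of the main results. Figures were drawn with matplotlib 3.10.9.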

Additional observations from a re-analysis of the deposited data

How the results depend on the processing

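Slc39a8 and Slc39a14 kept their direction in BCS against wild type under all 19 alternatives, and lost their calls in 4 and 8 of them. The number of the 7 genes called in that comparison was 1 with library size only, only the groups compared or the replicate block, and 0 to 2 with each library left out. In Ctr1-null against wild type it was 1 with DESeq2 and 0 to 2 with each library left out, and in BCS against Ctr1-null it was 0 under all 19. Genes called over the whole table in Ctr1-null against wild type (2) numbered 4 with RLE, upper-quartile, library size only, the authors' factors or at least 1 CPM in 3 samples, 6 with limma-voom, 1 with only the groups compared or the replicate block, 265 with no filter, 1056 with DESeq2 and 1 to 3254 with each library left out. In BCS against Ctr1-null (10) they numbered 114 with no filter, 711 with DESeq2, 2 with the replicate block and 0 to 183 with each library left out. In BCS against wild type (2916) they numbered 1543 with the replicate block and 568 to 5840 with each library left out. Among the fits that left out 1 library, the highest count in each of the 3 comparisons came without wild type replicate 1. The cause was not tested.

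Changes of sign among the 7 genes were found only for fold changes that were not called. With the authors' factors Slc39a10 gave -0.00507 in Ctr1-null against wild type, Mtf1 gave -0.10 and Slc39a14 -0.0481 in BCS against Ctr1-null, and Mtf1 gave -0.0636 in BCS against wild type. In BCS against wild type Mt1 gave 0.0160 with upper-quartile factors and 0.0724 with library size only, and Slc39a10 gave 0.0247 with library size only. With each library left out, the ranges that crossed 0 in Ctr1-null against wild type were -0.11 to 0.14 for Slc30a1 and -0.18 to 0.31 for Slc39a10. In BCS against Ctr1-null they were -0.0432 to 0.0908 for Mtf1, -0.18 to 0.11 for Slc39a10 and -0.10 to 0.12 for Slc39a14. In BCS against wild type they were -0.20 to 0.13 for Mt1, -0.52 to 0.0495 for Mt2 and -0.20 to 0.23 for Slc39a10. Library size only moved the median of all genes in that comparison by less than 0.1 on the log2 scale.

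The replicate numbers are not stated to pair the samples. The correlation of deviations between libraries of the same number ran from -0.48 to 0.43. Between libraries of unlike number it ran from -0.45 to 0.56, so these values cannot show whether the samples are paired. With the replicate number as a block Slc39a14 gave -0.44 in BCS against wild type (adjusted p = 0.0524), and Slc39a8 kept its call. Leaving out a library leaves a group with 2. For Slc30a10 every library was under the limit that a count of 0 allows, so no change could be measured.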
